A study of Mus musculus with 2 samples.

Results

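Paneth cells of the mouse small intestine were examined in 2 droplet-based single-cell RNA libraries, where they made up 80 of 15242 kept barcodes. A barcode, which stands for 1 captured cell, was kept with at least 500 unique molecular identifiers (UMIs, each counting 1 captured RNA molecule), at least 200 genes and at most 25% of UMIs from mitochondrially encoded genes. A kept barcode was taken as a Paneth cell where lysozyme 1 (Lyz1) and the alpha-defensins Defa17, Defa21, Defa24 and Defa30 together held at least 5% of its UMIs and at least 2 of Ang4, Mptx2 and Mmp7 had a UMI. The library labelled model gave 8 such cells of 7913 kept barcodes, and the library labelled control gave 72 of 7329. Both come from small intestine of Mus musculus, with mesentery and Peyer's patches removed, the lumen flushed, and the tissue taken apart with EDTA and then with collagenase A and DNase I. The labels give neither strain, age, gut region and number of animals nor what the model animals received; the title of the series names simulated microgravity, radiation and CB001 compounds, and no library of a compound-treated group was analysed here. With 1 library per label no test was possible, so values are given with exact 95% intervals that cover counting error only.

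Paneth cells sit at the base of the crypts of Lieberkühn, between the Lgr5-positive stem cells, and fill apical granules with antimicrobial proteins that are released into the crypt lumen. In the mouse these include lysozyme and a large family of alpha-defensins, also called cryptdins, which are made as precursors and cut to their active form by the protease matrilysin (Mmp7). Paneth cells are also known as a source of Wnt3, epidermal growth factor and Notch ligands for the neighbouring stem cells, and they arise from the same Atoh1-dependent secretory progenitors as goblet cells.

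The model library held 11468 barcodes and 76701215 UMIs, with a median of 3761 UMIs per kept barcode, and the control library held 10259 barcodes and 61370270 UMIs, with a median of 3636. The same barcode sequence occurred in both libraries 28 times, and none of these was a Paneth cell. The level of a gene is given as CPM, its UMIs summed over a set of cells and scaled to a total of 1000000 UMIs. Other epithelium means barcodes with a UMI of at least 3 of 8 epithelial genes (Epcam, Cdh1, Krt8, Krt18, Krt19, Cldn3, Cldn7 and Lgals4), a share under 5% of the 5 summed genes, no UMI of 6 immune, endothelial or stromal markers, and under 10% immunoglobulin UMIs. This gave 3052 barcodes in the model library and 3610 in the control library. Goblet, crypt stem and absorptive cells (285, 121 and 508 in the model library; 505, 129 and 679 in the control library) were taken from it by their own marker genes.

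Paneth cells were 0.101% of kept barcodes in the model library (interval 0.0437 to 0.199%) and 0.982% in the control library (0.769 to 1.24%), a log2 ratio of -3.28 (-4.55 to -2.23). Counted among epithelial barcodes only, they were 0.261% in the model library and 1.96% in the control library. After every kept barcode was thinned to 500 UMIs, 6 model and 46 control barcodes met the rule, a log2 ratio of -3.05 (-4.57 to -1.82). Thinning keeps the barcodes that were shallow from the start, so it does not separate their part from that of deep cells. Most of the difference lay among shallow barcodes. Of at least 5000 UMIs there were 6 Paneth cells in the model library and 11 in the control library, a log2 ratio of -0.99 with an interval of -2.70 to 0.58 that includes 0. Under 5000 UMIs there were 2 in the model library and 61 in the control library, a log2 ratio of -5.04 (-8.12 to -3.13). The split at 5000 UMIs was chosen after the depths were seen.

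**Figure D1:**
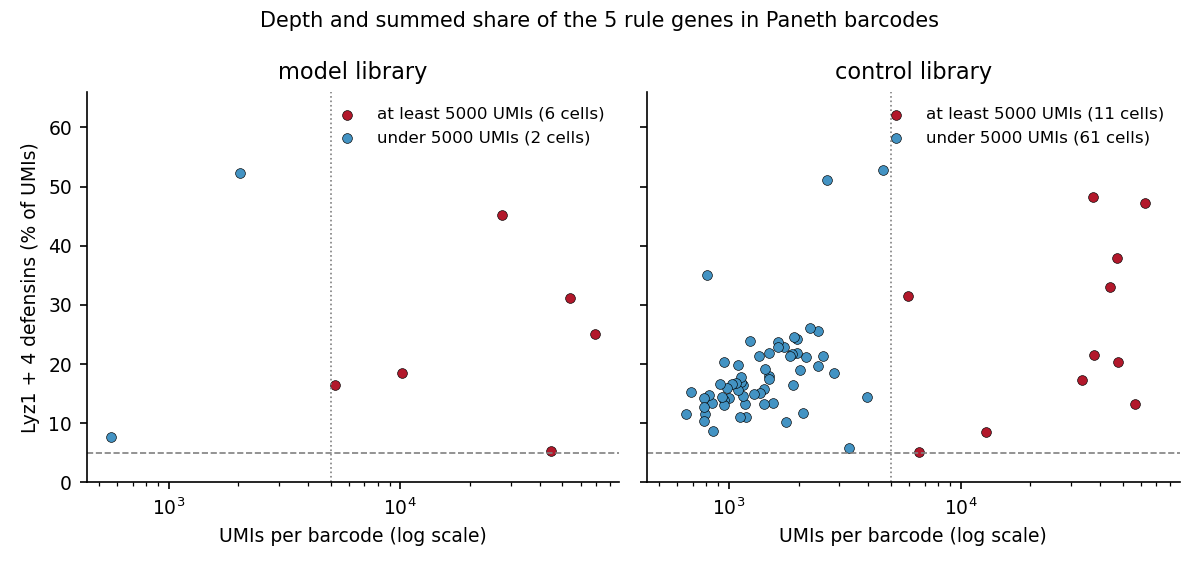
UMIs per barcode (x axis, log scale) against the summed share of Lyz1, Defa17, Defa21, Defa24 and Defa30 (y axis, % of UMIs) in each Paneth barcode of the model (left) and control (right) library; the dashed line is the 5% rule and the dotted line 5000 UMIs. The control library has 61 barcodes under 5000 UMIs and 11 above, the model library 2 and 6.

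The control barcodes spanned a wide range of depth, which was divided at 5000 UMIs. The 11 deep control cells had 5948 to 62222 UMIs (median 37672) and a median of 4732 genes, and the 61 shallow ones had 655 to 4646 UMIs (median 1343) and a median of 495 genes. The deep cells held 80.7% of all UMIs of the control Paneth set. In the model library the 6 deep cells had 5221, 10180, 27543, 44912, 53986 and 69348 UMIs and held 98.8% of the UMIs. For comparison, other control epithelium had a median of 4342 UMIs. The share of the 5 summed genes, which chose the cells and is a description only, had a median of 21.8% over the 8 model cells (5.37 to 52.3%) and of 16.9% over the 72 control cells (5.09 to 52.8%). In the control library the members nearest the limit had 5.09% and 5.89%, and the barcodes nearest below it had 4.54% and 2.68%; in the model library these were 5.37% and 7.62% inside and 2.82% and 2.60% outside. Another 1 model and 11 control barcodes passed the 5% but had fewer than 2 of the 3 products.

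The markers given with the rule were checked cell by cell. All 6 were found in 4 of the 6 deep model cells and in 8 of the 11 deep control cells, and the further Paneth products Itln1, Clps and Nupr1, which the rule did not use, had a UMI in every one of these 17 cells. The shallow control barcodes held more RNA of other kinds. Mptx2 had a UMI in 12 of 61, and since the rule asks for 2 of 3 products the rest had to hold Ang4 and Mmp7. Of these 61, 31 carried a UMI of an immune, endothelial or stromal marker, against 3 of the 11 deep control cells, and 22 met the remaining conditions of the epithelial rule, against 8 of 11. Their median share of Rn18s-rs5, a ribosomal RNA repeat, was 12.7% of UMIs, against 1.26% in the deep control cells, and their median mitochondrial share was 9.49%, against 2.82%. The division is not sharp: the deep control cells of 6617 and 5948 UMIs had 17.0 and 16.2% mitochondrial UMIs, and the shallow barcodes of 4646 and 2639 UMIs had 0.108 and 0.531%, with at most 1 UMI each of Gzma and Ccl5. The results below are given for the deep cells first, with list counts over all 72 cells where they differ in calls of higher genes or in direction. No doublet caller was used.

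RNA of Paneth products was also present outside Paneth cells. T cells should make none of the 5 summed genes, yet these had 80.3 CPM in 2413 model T cells, with a UMI in 14.4% of them at a median depth of 2859 UMIs. In 1329 control T cells they had 489 CPM, with a UMI in 75.3% at a median depth of 3191. For Defa24 alone, 8.41% of model T cells and 56.7% of control T cells had a UMI. Members held 79.8% of all Defa24 UMIs of kept model barcodes and 82.3% of those of kept control barcodes. The level of Defa24 in other control epithelium, 243 CPM, was near that in control T cells, 269.9 CPM. The source of this RNA was not tested.

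The alpha-defensin genes are nearly alike in sequence, which bears on every value that follows, because a read shared by several genes cannot be given to one of them and how such reads were counted is not given in the sources used here. Of the 20 alpha-defensin genes with at least 20 UMIs in the control cells, 15 had a complete coding sequence in the GENCODE M21 annotation of build GRCm38.p6, all on chromosome 8. Among the 14 of these that had a partner of equal length, coding identity to the nearest partner was 92.9 to 100% (median 99.3%), and 13 were at 95% or more. Defa17 and Defa3, Defa20 and Defa32, Defa23 and Defa31, and Defa36 and Defa37 were identical pairs. The ends of the coding sequences, where the mature peptide is encoded, are shown for the genes whose balance differs most between cells. They run 5′ to 3′ and end in the stop codon. Capitals in Defa30 and Defa17 mark bases that differ from Defa24, and the capital in Defa21 marks a difference from Defa22. Defa24 and Defa22 are the references and have no capitals, and the differences between these 2 are not marked.
Defa24: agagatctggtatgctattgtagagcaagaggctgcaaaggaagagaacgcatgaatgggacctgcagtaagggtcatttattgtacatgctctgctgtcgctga
Defa30: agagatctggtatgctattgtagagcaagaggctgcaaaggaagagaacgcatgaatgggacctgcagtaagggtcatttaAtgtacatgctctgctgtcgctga
Defa17: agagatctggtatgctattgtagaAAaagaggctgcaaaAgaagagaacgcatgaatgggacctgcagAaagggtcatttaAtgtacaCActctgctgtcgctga
Defa22: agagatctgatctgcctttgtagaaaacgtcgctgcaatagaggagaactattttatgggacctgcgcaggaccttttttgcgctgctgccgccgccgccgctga
Defa21: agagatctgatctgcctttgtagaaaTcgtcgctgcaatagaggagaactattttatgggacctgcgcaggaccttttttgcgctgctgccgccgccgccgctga
Over the 282 coding bases Defa30 differs from Defa24 at 4 and Defa21 from Defa22 at 2, so single genes of these pairs are uncertain and their sums are safer. The promoters are shown because Wnt signalling through TCF/LEF factors is known to act on Paneth genes. They are RefSeq windows of 300 bases on build GRCm38.p6, from 250 before to 50 after the annotated start, with capitals for the TCF/LEF core CTTTGA or CTTTGT on either strand.
Defa30, chr8:21134400-21134699, plus strand: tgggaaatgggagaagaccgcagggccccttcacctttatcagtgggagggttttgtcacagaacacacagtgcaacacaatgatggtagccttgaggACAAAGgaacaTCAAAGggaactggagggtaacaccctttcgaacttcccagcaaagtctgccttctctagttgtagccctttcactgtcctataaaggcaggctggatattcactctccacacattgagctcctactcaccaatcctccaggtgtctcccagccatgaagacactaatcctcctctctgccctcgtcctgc
Defa22, chr8:21162027-21162326, plus strand: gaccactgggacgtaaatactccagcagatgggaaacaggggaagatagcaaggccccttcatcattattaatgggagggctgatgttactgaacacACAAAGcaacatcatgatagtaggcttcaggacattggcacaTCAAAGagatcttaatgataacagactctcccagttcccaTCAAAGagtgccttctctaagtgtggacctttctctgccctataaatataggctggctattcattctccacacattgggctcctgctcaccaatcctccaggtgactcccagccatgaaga
Lyz1, chr10:117292819-117293118, minus strand: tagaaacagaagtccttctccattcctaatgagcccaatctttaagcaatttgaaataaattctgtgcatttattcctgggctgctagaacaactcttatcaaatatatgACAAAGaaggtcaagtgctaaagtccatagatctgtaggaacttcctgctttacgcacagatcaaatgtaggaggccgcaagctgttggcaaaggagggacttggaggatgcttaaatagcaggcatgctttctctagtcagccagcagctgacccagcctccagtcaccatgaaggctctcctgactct
The Defa30 window holds 2 matches, that of Defa22 3 and that of Lyz1 1, and the window of Defa21 at chr8:21025295-21025594 has the same letters as that of Defa22. Of 16 alpha-defensin windows 13 hold the core (81.2%), against 10249 of 32851 windows of all genes (31.2%). The letters TATAAA on the gene's strand occur in 15 of the 16 (93.8%), against 2733 of 32851 (8.32%). These matches describe the windows and show no binding.

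Alpha-defensins were the hallmark of the deep control cells, in which they held 35.9% of UMIs, against 0.0414% in other control epithelium. Every gene of the family that reached 20 UMIs was higher, 21 of 21, with a median log2 ratio of 10.33 beside -0.87 over all 3286 genes that reached 20 observed or expected UMIs. Of those 3286 genes, 115 (3.5%) were at least 2-fold higher and 1417 (43.1%) at least 2-fold lower in the deep cells, so the background for a lower gene is large. The rule used 4 of the defensins and the family shares much of its sequence. The other defensins named below reached 20 UMIs only through the Paneth cells, so these counts are a description. In this and later counts, a gene that reached the limit on 1 side only could be called only in that direction. The family count takes in the pseudogene Defa-ps6, which the sequence comparison above left out. With all 72 control cells the figures were 22 of 22 defensins, 133 of 3973 genes higher (3.35%) and 1739 lower (43.8%), with a median of -0.89.

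Among defensins the rule did not use, Defa39 made up 0% to 5.95% of the UMIs of single deep control cells, with a median of 2.81%. Summed over the cells it had 34114 CPM, against 22.1 CPM in other epithelium, a ratio of 1542 (1429 to 1665). Only 1 of the 11 cells had no Defa39 UMI. Defa38 had a ratio of 1358 (1217 to 1519) and Defa29 of 1233 (1059.6 to 1441). The genes of fewer UMIs behaved alike: Defa40 had a ratio of 1901 (1117 to 3516), Defa26 of 1467 (1039 to 2138) and Defa23 of 1563 (1046 to 2439). Ratios were 1332 (903 to 2045) for Defa34, 1007 (869 to 1173) for Defa43, 1001 (857 to 1175) for Defa36, 1025 (782 to 1367) for Defa41, 924 (760.4 to 1132) for Defa5 and 938 (747 to 1193) for Defa3. Defa32 had 80 UMIs against 1 in other epithelium, a ratio of 6511 (1136 to 260338), and Defa24, the defensin with the smallest ratio, had 623 (608 to 638). The sum of Defa21 and Defa22 was uneven: 1 control cell of 62222 UMIs held 8691 Defa21 UMIs, which is 73.7% of all Defa21 UMIs of the 72 control cells, and 8176 Defa22 UMIs. In the other 10 deep cells Defa21 stood between 0 and 1129 UMIs and Defa22 between 0 and 357, so the pair's summed level rests on that cell.

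Antimicrobial products outside the defensin family split by kind. Of 15 such genes that reached 20 UMIs, 10 were at least 2-fold higher and 5 at least 2-fold lower in the deep cells, and the list held 8.12% of their UMIs, against 1.99% in other epithelium. Itln1, Pla2g2a and Retnlb, which the rule did not use, reached 20 UMIs only through the Paneth cells and could only be called higher. The lysozyme and the products of the rule were higher, as the rule required: Lyz1 had a ratio of 1136 (1068 to 1209.7), the pentraxin Mptx2 of 997 (864 to 1156) and the ribonuclease angiogenin 4 (Ang4) of 423 (383 to 467). Intelectin 1 (Itln1), a lectin that binds bacterial sugars and was not in the rule, had a lowest value per deep cell of 2652, a median of 20679 and a highest value of 49192 CPM. Its summed level was 24717 CPM, against 48.2 CPM in other epithelium, a ratio of 513 (486 to 542), so even the lowest deep cell stood above the level of other epithelium. Secretory phospholipase A2 (Pla2g2a), which breaks down bacterial membranes, had 531 CPM, against 1.04, with UMIs in 8 of 11 cells and a ratio of 513 (354 to 765). The ribonucleases Rnase1, Ang and Rnase4 had ratios of 72.2 (59.5 to 87.5), 6.7 (4.99 to 8.83) and 4.97 (3.98 to 6.14), and the lectin Reg4 of 11.6 (10.1 to 13.3). Resistin-like beta (Retnlb) had a ratio of 357 (193 to 711), but all its 57 UMIs came from 1 of the 11 cells.

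Other antimicrobial products, among them lectins of the villus and surface, went the other way, unlike the lectins Itln1 and Reg4. Reg3b, which acts on Gram-negative bacteria, had 894 CPM in the deep Paneth cells and 6383 in other epithelium, a ratio of 0.14 (0.126 to 0.156). Reg3g, which acts on Gram-positive bacteria, had a ratio of 0.424 (0.384 to 0.467). That ratio is above 0.5, and so not called lower, when CPM leave out the rule genes, defensins and mitochondrially encoded genes. With those CPM 7 of 12 measured genes of the list were higher and 4 lower. Reg3a had 1 UMI in 1 deep cell, a ratio of 0.0222 (0.000562 to 0.124). Lypd8, which keeps flagellated bacteria off the colonic epithelium, had a ratio of 0.292 (0.252 to 0.336), and Zg16, a goblet lectin, 0.0753 (0.0665 to 0.085). Single cells varied widely in Reg3g, with 0 UMIs in the lowest, 19 at the median and 158 in the highest of the 11 deep control cells. Of the 11 deep cells, the one with 158 UMIs was also the one with T cell UMIs described further on.

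Granule and other secreted Paneth markers were higher in 10 of 12 measured genes and lower in none, with a median log2 ratio of 4.42. Mmp7, Clps, Nupr1 and Pnliprp2 among them reached the limit only through the Paneth cells and could only be called higher. Mmp7, the protease that activates the defensins and a gene of the rule, had 2084 CPM, against 12.9, a ratio of 162 (143 to 182). Colipase (Clps), a pancreatic lipase cofactor, had a lowest value per deep cell of 302, a median of 2229.8 and a highest value of 4871 CPM and a ratio of 106 (97.3 to 116). The lipase relative Pnliprp2 had a ratio of 172 (133 to 225) and the secreted protease Habp2 of 237 (120.3 to 502), with UMIs in 8 of 11 cells. Nupr1, a stress-response chromatin protein, was found in all 11 with a ratio of 56.7 (49 to 65.6). The surface protein Cd24a, used to sort Paneth cells, had a ratio of 6.66 (5.95 to 7.44), and the chemokines Ccl6 and Ccl9 of 10.5 (9.69 to 11.4) and 26 (21 to 31.9). Guanylin (Guca2a) had a ratio of 4.79 (4.27 to 5.35), uroguanylin (Guca2b) of 1.29 (1.15 to 1.44) and the goblet trefoil peptide Tff3 of 0.512 (0.48 to 0.546). Spink4, listed here both as a granule marker and as a goblet gene, had 13428 CPM in deep Paneth cells, 7404 in goblet cells and 763 in other epithelium. Its share per deep control cell was 0.0756 to 6.08%, with a median of 0.539%, which is below the summed goblet level. The cell of 33420 UMIs, which also carried T cell UMIs, held 2031 of the Spink4 UMIs. The zinc carrier Slc30a2, needed for Paneth granules in the mouse, had only 12 UMIs in the 11 cells (30.7 CPM), against 35.4 CPM in other epithelium and 87.8 CPM in enterocytes.

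**Figure D2:**
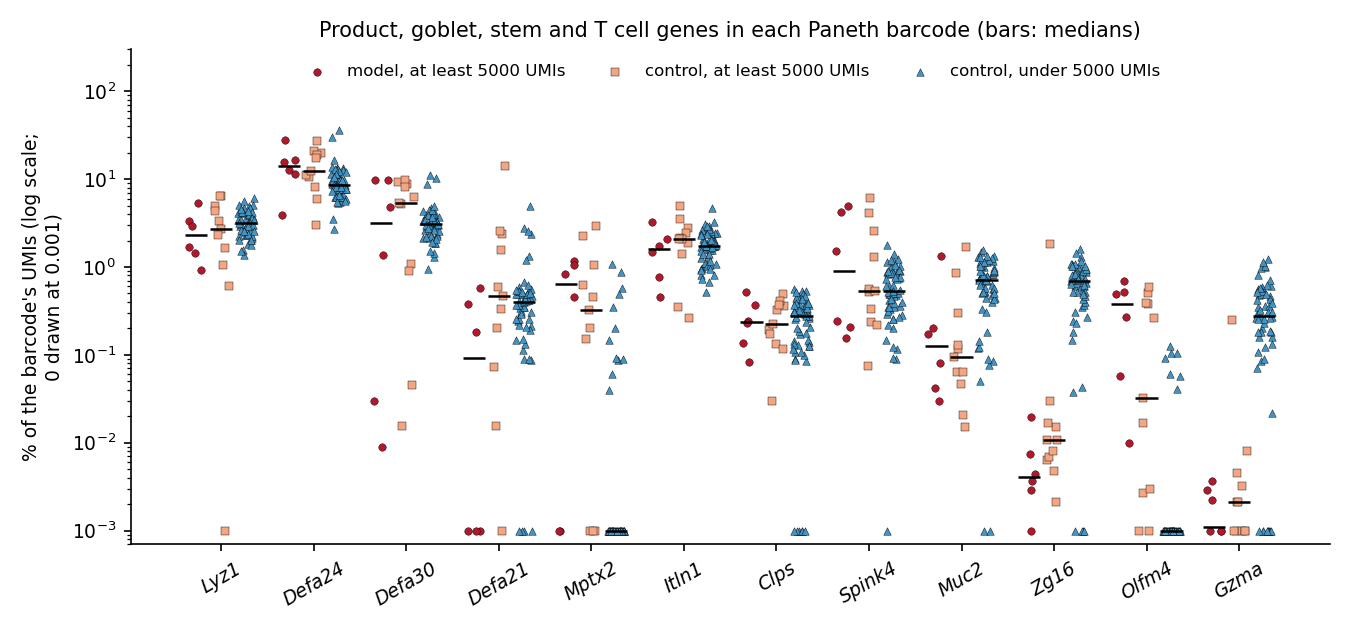
Share of each barcode's UMIs (y axis, log scale, 0 drawn at 0.001%) of Paneth products, goblet, stem and T cell genes in the 6 deep model, 11 deep control and 61 shallow control Paneth barcodes; bars are medians, and the 2 shallow model barcodes are not drawn. Zg16 and Gzma sit near 0.7% and 0.3% in most shallow control barcodes and under 0.05% in all but 1 deep control cell each, while Olfm4 is present in deep cells and at 0 in 54 of 61 shallow ones.

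Among the 4 measured niche genes, a list of signals that Paneth cells give to stem cells, Wnt3 had the highest ratio. Its 20 UMIs in the deep control cells just reached the limit, so it was measured through these cells and could only be called higher. Single deep control cells had 0 to 9 Wnt3 UMIs (median 1), with UMIs in 7 of 11. The cell of 33420 UMIs held 9 of the 20 and is the one with T cell UMIs described further on. In all, Wnt3 had 51.1 CPM, against 1.41 in other epithelium, a ratio of 36.2 (20.2 to 62.5). Goblet cells had 0.674 CPM, crypt stem cells 2.06 and enterocytes 0, and in the 6 deep model cells it had UMIs in 5. Wls, which carries Wnt proteins out of the cell, had a ratio of 2.02 (1.25 to 3.11), just past 2. The epidermal growth factor family member Tgfa had 13 UMIs, too few for the count, at 33.2 CPM, against 15.4 CPM in other epithelium. Egf and the Notch ligands Dll1, Dll4 and Jag1 were each under 20 observed and expected UMIs, so their levels could not be compared at this depth. Areg, another growth factor, had a ratio of 0.733 (0.565 to 0.935), which turns to above 1 when CPM leave out the rule genes, defensins and mitochondrially encoded genes. Bst1, an enzyme that makes cyclic ADP-ribose, was lower at a ratio of 0.192 (0.0624 to 0.449). In all, 2 of the 4 measured niche genes were higher and 1 lower, and over all 72 cells 1 was higher and 1 lower of 4.

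That other scaling moved many values. Leaving out the 8 rule genes, all alpha-defensins and mitochondrially encoded genes kept 56.3% of UMIs in the deep cells and 90.4% in other epithelium. Each remaining ratio was thereby multiplied by 1.60, the all-gene median became -0.10, and 187 of 2313 genes were higher and 391 lower. Over all 72 cells the share of calls that were higher was 30.03% on that scale and 7.10% on the plain one. Below, list counts on this scaled CPM are given beside those on plain CPM where a direction or most calls change, and a ratio between 0.62 and 1 is given without a direction. Scaled counts were made only for deep and all control cells over other epithelium and between the libraries. List counts against goblet cells and crypt stem cells, for the shallow barcodes alone and within the model library are on plain CPM.

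Transcription factors of the secretory and crypt lineages were partly higher and those of the absorptive lineage lower. Of 14 measured, 2 were higher and 7 lower on plain CPM, and 2 higher and 2 lower of 13 on the scaled CPM; over all 72 cells 3 of 15 were higher and 7 lower. Sox9, which is required for Paneth cell formation, had a lowest value per deep cell of 0, a median of 321 and a highest value of 780.0 CPM, and its summed level was 360.1, against 92.6 in other epithelium, a ratio of 3.89 (3.26 to 4.61). Crypt stem cells had 324 CPM of Sox9, goblet cells 59 and enterocytes 5.42. Foxa3, a factor of secretory cells, had a ratio of 3.03 (2.03 to 4.36). Atoh1, which starts the secretory lineage, had 18 UMIs in 6 of 11 deep cells and reached the limit only over all 72 cells, with a ratio of 3.12 (1.89 to 4.88). Bhlha15 (Mist1), which scales up the secretory machinery, had 14 UMIs in 8 of 11 deep cells, 35.8 CPM against 1.22, and stayed under the limit. Hes1, the Notch target that holds cells out of the secretory lineage, had UMIs in 5 of 11 cells, with 25.5 CPM in deep Paneth cells, 72.5 in goblet cells, 236 in crypt stem cells and 117 in other epithelium, a ratio to the last of 0.218 (0.104 to 0.401). Hnf4g and Gata4, factors of absorptive cells, had ratios of 0.102 (0.0545 to 0.175) and 0.166 (0.054 to 0.389), and the intestinal factors Cdx2 and Klf5 of 0.323 (0.181 to 0.534) and 0.417 (0.338 to 0.508).

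**Figure D3:**
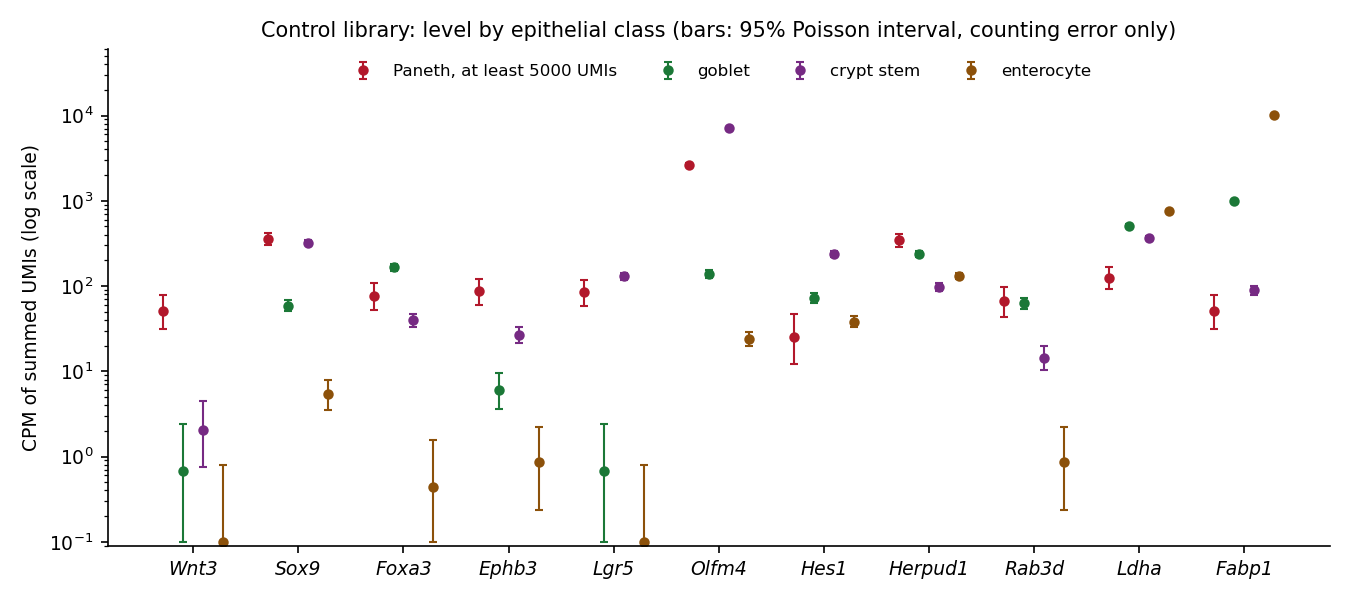
CPM of 11 genes (y axis, log scale) summed over deep Paneth cells, goblet cells, crypt stem cells and enterocytes of the control library; bars are 95% Poisson intervals for counting error only, and 0 is drawn at 0.1 CPM. Wnt3 and Ephb3 are highest in the Paneth cells, Lgr5 and Olfm4 lie below crypt stem cells and above goblet cells, and Ldha and Fabp1 are lowest in the Paneth cells.

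Genes of the endoplasmic reticulum, where secreted proteins are folded, stood above the all-gene median. Of 22 measured folding and unfolded protein response genes, 4 were higher and 1 lower, with a median log2 ratio of 0.21. On scaled CPM 9 of 22 were higher and 0 lower, with a median of 0.90 beside the all-gene median of -0.10. Over all 72 cells 2 of 22 were higher and 1 lower, with a median of 0.17, and in the shallow barcodes 0 of 9 were higher and 2 lower. Herpud1, which helps remove misfolded proteins, had a ratio of 2.9 (2.43 to 3.45), the co-chaperone Dnajb9 of 2.28 (1.72 to 2.97) and Edem1, which marks glycoproteins for degradation, of 2.03 (1.57 to 2.58). The disulfide isomerase Agr2 had a ratio of 2.14 (1.97 to 2.33), with 1458 CPM in deep Paneth cells and 6146 in goblet cells. The chaperone Hspa5 (BiP) had a ratio of 1.26 (1.14 to 1.38), and Xbp1, the response factor known to be needed for Paneth cells in the mouse, had 184 CPM in Paneth cells and 182 in other epithelium. The lectin chaperone Canx was the lowest, with 0.47 (0.373 to 0.585). Of 28 measured genes of entry into the endoplasmic reticulum and early transport, 4 were higher and 1 lower, and 6 higher and 0 lower on scaled CPM, which turned the list median of -0.15 to 0.53; over all 72 cells 2 were higher and 1 lower. The cargo receptor Tmed3 had a ratio of 3.14 (2.24 to 4.3), the translocon-associated Ssr4 of 2.21 (1.91 to 2.54), and the signal peptidase subunits Spcs3 and Sec11c of 2.18 (1.58 to 2.93) and 2.03 (1.67 to 2.44). The ribosome-binding Rrbp1 was lower, with 0.379 (0.319 to 0.446).

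Of the genes for granule release, Rab3d, a GTPase on secretory granules, had a ratio of 4.81 (3.11 to 7.14) and the SNARE protein Vamp8 of 0.365 (0.234 to 0.544); in all, 1 of 6 was higher and 1 lower, and 2 of 4 higher and 0 lower on scaled CPM. Zinc carriers and metallothioneins had 0 higher and 4 lower of 7, led by the basolateral importer Slc39a5 at 0.108 (0.0222 to 0.315) and the apical importer Slc39a4 at 0.173 (0.056 to 0.403), while metallothionein 1 (Mt1) had 0.68 (0.587 to 0.783). On scaled CPM only 2 zinc genes reached the limit and neither was called. Of 6 measured autophagy and bacterial sensing genes, 0 were higher and 1 was lower, the immunoglobulin A transporter Pigr at 0.331 (0.296 to 0.369), and 0 of 6 were called on scaled CPM. Nod2 had no UMI in the 11 cells, and with it 12 of the 18 listed genes were under 20 observed and expected UMIs. The cytokine and growth factor receptors had 0 higher and 7 lower of 8, the lowest being Il17rc at 0.101 (0.0208 to 0.295), and none called of 3 on scaled CPM; over all 72 cells 1 of 10 was higher and 5 lower.

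Wnt receptors, targets and positioning genes had 2 higher and 3 lower of 8. Ephb3, the receptor that keeps Paneth cells at the crypt base in the mouse, had a ratio of 10.9 (7.38 to 15.6), with 86.8 CPM in deep Paneth cells, 26.8 in crypt stem cells, 6.07 in goblet cells and 0.867 in enterocytes. Its ligands, which mark cells higher up, were lower: Efnb1 had a ratio of 0.272 (0.13 to 0.50) and Efnb2 of 0.31 (0.155 to 0.556). The Wnt receptor Fzd5, which Paneth cells need to mature in the mouse, had a ratio of 0.351 (0.208 to 0.556), and on scaled CPM that is above 0.5. Sox9, counted here too, was the other higher gene.

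Stem cell genes were present in part of the Paneth cells. Of 8 measured, 3 were higher and 0 lower, with a median log2 ratio of 0.55, and 5 of 7 were higher on scaled CPM. Over all 72 cells 1 of 8 was higher and 0 lower, and in the shallow barcodes 0 were higher and 2 lower of 2. Lgr5, the stem cell receptor for R-spondin, had 0 to 14 UMIs per deep control cell (median 2) with UMIs in 6 of 11. Summed, it had 84.3 CPM, against 12.2 in other epithelium, a ratio of 6.92 (4.7 to 9.89), and 130.1 CPM in crypt stem cells, which were chosen by Lgr5. Olfm4 had 2633 CPM in deep Paneth cells, 7235 in crypt stem cells and 1293 in other epithelium, and Smoc2 a ratio of 2.1 (1.5 to 2.85). A cell of 47741 UMIs held 14 Lgr5 and 282 Olfm4 UMIs beside 20.3% of the 5 summed genes. Whether such barcodes held a stem cell as well was not tested. Cell cycle genes had 0 higher and 3 lower of 15, with a median of -0.61 that becomes 0.33 on scaled CPM.

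Absorptive and enteroendocrine genes were lower in the deep cells, goblet genes went both ways and the T cell genes measured were higher. All 19 measured absorptive genes were lower, with a median log2 ratio of -3.07, and on scaled CPM 18 of 18 were lower, with a median of -2.40. The fatty acid binding protein Fabp1 was 45.9-fold (29.7 to 75.1) lower and sucrase-isomaltase (Sis) 57-fold (24.4 to 176) lower. All 6 measured enteroendocrine genes were lower, with a median of -4.86. Gip, Cck, Chgb and Ghrl among them reached the limit only through other epithelium and could only be called lower. The incretin Gip had 1 UMI in 11 cells, a ratio of 0.00488 (0.000124 to 0.0272). Cholecystokinin (Cck) and chromogranin B (Chgb) had 1 UMI each, with ratios of 0.0108 (0.000274 to 0.0604) and 0.0123 (0.000312 to 0.0686), and so had the hunger hormone ghrelin (Ghrl), with 0.0149 (0.000377 to 0.083). Further among the lowest were the retinol-binding Rbp2, 15.3-fold (11.6 to 20.7) lower, the lectin Reg1, 21.5-fold (10.4 to 53.5), and the transcription factor Maf, 23.6-fold (10.1 to 72.7). Goblet genes had 3 higher and 3 lower of 8, with a median of -0.62 that becomes 0.06 on scaled CPM: Spink4, Klk1 and Agr2 higher, and Zg16, Clca1 and Fcgbp lower. Muc2, the goblet mucin, had a lowest share per deep control cell of 0.0151%, a median of 0.0956% and a highest of 1.70%. T cell genes had 2 higher of 2 measured, Gzma and Ccl5, of which 1 deep cell of 33420 UMIs held 84 of 93 Gzma and 173 of 180 Ccl5 UMIs, along with 12 Cd3e UMIs. Over all 72 cells T cell genes were higher in 8 of 8 and goblet genes had 2 higher and 2 lower of 9, with a median of 0.27. Other epithelium was chosen without any Ptprc, Cd3e or Cd3g UMI and Paneth cells were not, so the T cell direction was partly set in advance. Plasma cell genes had 0 higher and 3 lower of 3 in the deep cells, 1 lower of 3 on scaled CPM, 0 called of 3 over all 72 cells, and 3 higher of 3 in the shallow barcodes. Tuft, macrophage, stromal and endothelial genes did not reach the limit.

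Most energy metabolism genes were lower on plain CPM. Of 10 measured genes of glycolysis and lactate export, 0 were higher and 9 lower, with a median log2 ratio of -1.75, and 6 of 9 were lower on scaled CPM, with a median of -1.10. Lactate dehydrogenase A (Ldha) had 125 CPM in deep Paneth cells, 513 in goblet, 367 in crypt stem and 755 in absorptive cells, and a ratio to other epithelium of 0.171 (0.126 to 0.226). Pyruvate kinase (Pkm) had a ratio of 0.193 (0.118 to 0.299) and Gapdh of 0.376 (0.313 to 0.449). Of 19 measured nuclear genes of mitochondrial respiration, 18 were lower, with a median of -1.37, but only 3 on scaled CPM, with a median of -0.69. All 12 measured mitochondrially encoded genes were lower, with a median of -1.59; the rule limits their sum, and the median mitochondrial share was 2.82% in the deep cells, against 15.7% in other epithelium. MHC class II genes had 3 lower of 4 on plain CPM and 0 on scaled CPM. Ribosomal protein genes, with 0 of 76 called, had a median of -0.27 that scaling turned to 0.41. Among p53 targets and death genes 1 of 8 was higher, Trp53inp1 at 6.13 (4.39 to 8.36), and 3 were lower, the lowest being the pore former Gsdmd at 0.127 (0.0346 to 0.326); the median of -0.61 becomes 0.27 on scaled CPM.

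**Figure D4:**
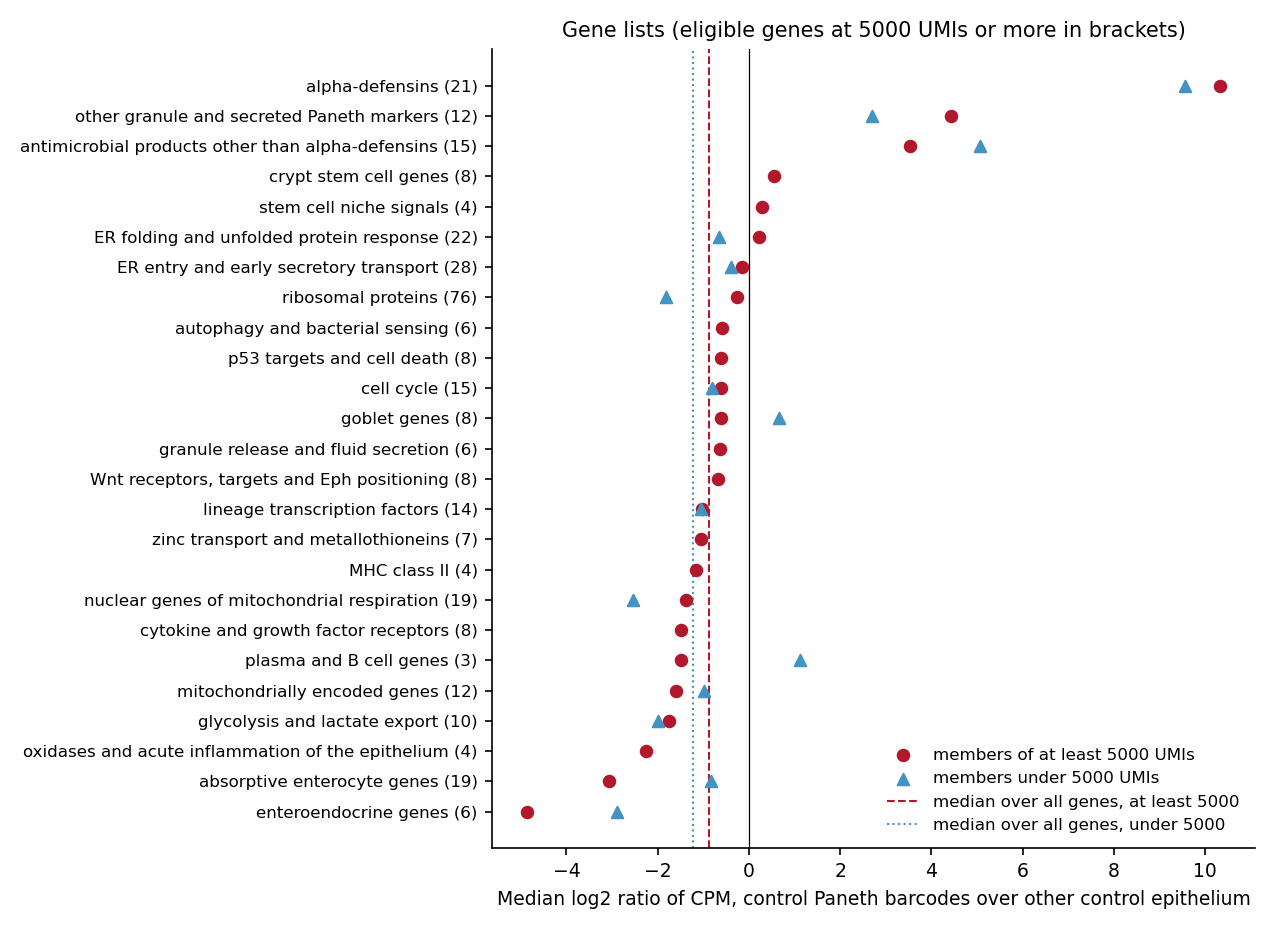
Median log2 ratio of CPM (x axis) of each gene list in control Paneth barcodes over other control epithelium, for deep (circles) and shallow (triangles) barcodes, with the all-gene medians as vertical lines; lists with fewer than 3 measured genes are left out. Alpha-defensins lie at 10.33 in deep cells, absorptive genes at -3.07 in deep and -0.84 in shallow barcodes, and goblet and plasma cell genes lie right of 0 in shallow barcodes only.

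Against goblet cells, the nearest lineage, 109 of 2828 genes were higher in deep control Paneth cells (3.85%) and 908 lower (32.1%), with a median log2 ratio of -0.62. With all 72 control cells these were 120 (3.55%) and 993 (29.4%) of 3377. Alpha-defensins led the higher genes, all 21 of 21, with Defa22 at 885 (712 to 1114) and Defa39 at 649 (554 to 765). Defa36 had a ratio of 676 (453 to 1057), Defa38 of 695 (541 to 908) and Defa29 of 689 (481 to 1022). Goblet genes, by which those cells were chosen, were lower in 11 of 12. The genes furthest below goblet cells were Zg16, 140.0-fold (124 to 159) lower, the calcium-binding S100a6, 71.3-fold (44.5 to 122), the mucus protein Clca1, 57.4-fold (42.9 to 78.7), and the mucus protein Fcgbp, 23.9-fold (21.8 to 26.3). The tryptophan-degrading Ido1 had 1 UMI in 11 cells, against 1661 in goblet cells, a ratio of 0.00456 (0.000115 to 0.0255). Folding genes had 0 higher and 4 lower of 23 against goblet cells, with a median log2 ratio of -0.58, close to that of all genes. Crypt stem cell genes were higher in 7 of 7, with a median log2 ratio of 1.89.

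Against crypt stem cells, 126 of 3421 genes were higher in deep control Paneth cells (3.68%) and 1786 lower (52.2%), with a median log2 ratio of -1.02. With all 72 cells they were 200 (4.81%) and 2242 (53.9%) of 4157. Antimicrobial products were higher in 12 of 14 and granule markers in 12 of 12. Defa39 had a ratio of 2155 (1615 to 2945), Defa38 of 1689 (1143 to 2612), Defa22 of 1394 (1059 to 1874), Defa36 of 1444 (805 to 2897) and Defa29 of 1190.2 (742 to 2046). The lowest named genes were the scavenger receptor Dmbt1, 7.86-fold (6.01 to 10.5) lower, Hes1, 9.26-fold (5.0 to 19.4), the interferon-inducible pseudogene Gvin-ps3, 6.86-fold (4.89 to 9.94), the innate sensor Nlrp6, 7.83-fold (4.45 to 15.2), and endothelin 1 (Edn1), 7.43-fold (4.32 to 14). Cell cycle genes were lower in 20 of 21, with a median of -1.46, and ribosomal protein genes in 69 of 76, with a median of -1.18. These values are on plain CPM, beside the all-gene median of -1.02, and were not repeated on scaled CPM. Folding genes were higher in 5 of 22 and lower in 0.

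The shallow control barcodes were also high in Paneth products, several of them required by the rule, and most of their measured T cell, absorptive, plasma cell and goblet genes were higher than in the deep cells. Of 742 measured genes, 60 were higher than in other control epithelium (8.09%) and 437 lower (58.9%), with a median log2 ratio of -1.22. Alpha-defensins were higher in 18 of 18 and held 24.3% of UMIs, Defa39 had a ratio of 1779 (1641 to 1931) and Itln1 of 403 (376 to 432). Set against the deep control cells, 94 of 475 genes were higher (19.8%) and 171 lower (36%), with a median of -0.48. Many of the higher ones are genes of other cell types. The T cell protease Gzma had 3377 CPM in shallow barcodes and 238 in deep cells, a ratio of 14.2 (11.3 to 18.1), and the chemokine Ccl5 had 8.62 (7.2 to 10.4). The absorptive apolipoprotein Apoa4 had a ratio of 10.9 (8.83 to 13.6), the villus-tip enzyme Ada 14.5 (8.59 to 25.6), the goblet lectin Zg16 9.29 (8.02 to 10.8) and the immunoglobulin light chain Igkc 7.46 (5.93 to 9.42). By list, T cell genes were higher in 6 of 6 (0.896% of UMIs in shallow, 0.0853% in deep), absorptive genes in 12 of 13, plasma cell genes in 3 of 3 and goblet genes in 6 of 8. Lars2, whose counts often contain ribosomal RNA reads, had a ratio of 15.9 (13 to 19.5).

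The genes lower in the shallow barcodes were of several kinds. Olfm4 had 8 UMIs in 61 barcodes and was 30.9-fold (15.6 to 71.8) lower than in deep cells. Clca3b had 0 UMIs, and with a floor of 3 UMIs put in for the group it was 18.5-fold (6.27 to 90.6) lower. Defa29 was 3.03-fold (2.63 to 3.49) lower, the chemokine Ccl6 4.95-fold (3.45 to 7.35) and Agr2 4.56-fold (3.16 to 6.83). The chloride importer Slc12a2 was 5.3-fold (2.83 to 11.2) and the chaperone Hsp90ab1 4.7-fold (3.24 to 7.09) lower. Summed Defa22 was 4.52-fold (4.13 to 4.95) lower, but the deep cell of 62222 UMIs held 8176 of the 9578 deep Defa22 UMIs. This ratio therefore rests on that cell. The median Defa22 share per barcode was 0.308% in deep and 0.182% in shallow control barcodes. Ribosomal protein genes were lower in 70 of 74 and held 3.20% of UMIs in shallow barcodes, against 9.04% in deep cells. Lgr5 had no UMI in any of the 61. Compared with 4588 other control barcodes of under 5000 UMIs, 48 of 615 genes were higher (7.8%) and 251 lower (40.8%), with Itln1 at 19422 CPM against 91.5 CPM. The part of free RNA, of doublets and of damaged cells in these barcodes was not tested.

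The 17 deep Paneth cells of both libraries differed in which defensins they held. Defa30 UMIs per 100 Defa24 UMIs were 0.194 to 0.364 in 4 cells and 12.1 to 60.6 in the other 13. The 4 cells were 2 of the 6 deep model cells and 2 of the 11 deep control cells, so both libraries had them, and the split was chosen after these values were seen and gets no test. In the 4 cells Defa21 had 0 to 2 UMIs and Mptx2 had 0 UMIs in 3, whereas Defa24 held 3.90 to 12.6% of UMIs and Defa17 0.484 to 4.27%, overlapping the other 13 cells (3.02 to 27.6% and 0.227 to 3.63%). Their Spink4 share was 1.54 to 6.08% (median 4.16%), against 0.0756 to 4.88% (median 0.336%) in the other 13. Muc2 had a median of 1.11% in the 4 and of 0.0643% in the 13, with lowest and highest values of 0.2004 and 1.70% in the 4 and of 0.0151 and 0.303% in the 13. The ranges overlapped for both genes. Lyz1 had a median of 0.991% in the 4 and of 3.30% in the 13.

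These 4 cells were not alike in other genes. A control cell of 12821 UMIs had no Lyz1 or Defa39 UMI and 234 Zg16 UMIs (1.83%), while in the other 3 Zg16 had 2 to 5 UMIs. A control cell of 33420 UMIs was the one with 12 Cd3e UMIs, and Itln1 held 4.92% of its UMIs, the highest of the 17. A model cell of 44912 UMIs had 311 Olfm4, 4 Lgr5 and 26 Mki67 UMIs, and a model cell of 10180 UMIs had 1 Olfm4 and no Lgr5 or Mki67 UMI. The shallow control barcodes, in contrast, had 20.7 to 67.2 Defa30 UMIs per 100 of Defa24 (median 34.7), and none was in the low range. Since Defa30 and Defa24 differ at 4 coding bases, the ratio depends on how the reads of each were assigned.

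**Figure D5:**
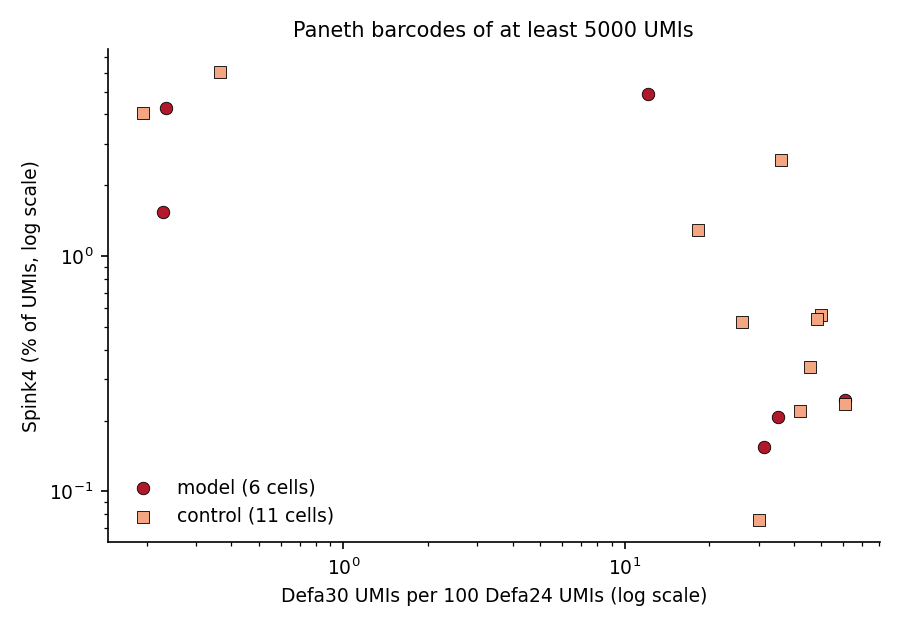
Defa30 UMIs per 100 Defa24 UMIs (x axis, log scale) against the Spink4 share of UMIs (y axis, log scale) in the 17 Paneth cells of at least 5000 UMIs, 6 model (circles) and 11 control (squares). In 4 cells, 2 of each library, Defa30 lies under 0.4 per 100 and Spink4 at 1.54% or more; the other 13 lie at 12.1 or more.

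Between the libraries, deep Paneth cells were compared as 6 model against 11 control cells. Of 1283 measured genes 165 were higher in the model cells (12.9%) and 77 lower (6%), with a median log2 ratio of 0.34, and on scaled CPM 95 of 1310 were higher and 100 lower, with a median of 0.13. Over all 8 and 72 cells 223 of 1311 were higher (17%) and 97 lower (7.4%), so that 69.7% of calls were higher, against 54.4% on scaled CPM. No value of this comparison has a replicate. A UMI of Ptprc, Cd3e, Cd3g or another non-epithelial marker was present in 3 of the 6 model cells and 3 of the 11 control cells. The comparison over all depths was therefore repeated without the cells that had a Ptprc, Cd3e or Cd3g UMI. This left 5 model and 38 control cells, of which 3 and 8 were deep. The direction turned, with 3 of 230 genes higher and 58 lower. The median log2 ratio was -0.53, beside 0.42 for all 8 and 72 cells. The mix of depths and the genes measured changed along with the markers, so their parts cannot be told apart.

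Alpha-defensins held 28.8% of UMIs in deep model cells and 35.9% in deep control cells; 0 of 21 were higher and 10 lower, with a median log2 ratio of -0.79. Over the 5 and 38 cells without a Ptprc, Cd3e or Cd3g UMI the family's median was 0.08, against -0.71 over all 8 and 72 cells. Defa24 had 145632 CPM in model cells and 151557 in control cells, a ratio of 0.961 (0.948 to 0.974), and Defa30 had a ratio of 0.997 (0.975 to 1.02). The other rule defensins differed: Defa17 had a ratio of 0.767 (0.735 to 0.801) and Defa21 of 0.0862 (0.0788 to 0.0941), where the control level of Defa21 rests on the 1 cell described above. Defa20 had 1 UMI in the 6 model cells, against 269 in 8 of the 11 control cells, a ratio of 0.00689 (0.000174 to 0.0387). Defa32, identical to it in coding sequence, had 0 UMIs, against 80 in 4 control cells. With a floor of 3 UMIs put in for the model group, Defa32 was 14.4-fold (4.75 to 71.2) lower. Defa34 had a ratio of 0.189 (0.136 to 0.257). Lyz1 shares were 0.931 to 5.37% in the 6 model cells (median 2.29%) and 0 to 6.49% in the 11 control cells (median 2.70%), so the cells overlapped. Itln1 had medians of 1.61% in model cells and 2.07% in control cells and also overlapped. Nupr1 had 137 CPM in model cells and 805 in control cells, a ratio of 0.171 (0.112 to 0.25). The cells overlapped: the highest share of the 17, 0.192%, was that of a model cell, and 117 and 64 of the 315 control UMIs were in 2 cells.

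Part of the crypt stem and cell cycle genes were higher in the model cells. Crypt stem cell genes had 5 of 9 higher and 0 lower, with a median log2 ratio of 1.07, and 4 of 9 on scaled CPM, with a median of 0.87. Olfm4 had 1, 3, 74, 268, 311 and 362 UMIs in the 6 model cells, and 0 to 289 UMIs in the 11 control cells (median 20); as a share this was 0.383% and 0.0321% at the median. Ascl2, a stem cell transcription factor, had a ratio of 3.46 (1.79 to 6.97), Axin2, a Wnt target, of 3.01 (1.56 to 6.01), and Lgr5 of 1.35 (0.762 to 2.35). Cell cycle genes had 6 of 10 higher and 0 lower, and 3 of 10 on scaled CPM. Mki67 UMIs were 26, 19 and 10 in 3 model cells and 0 in the other 3, and 0 to 8 in the control cells (median 1). Hes1 had 232 CPM in model cells and 25.5 in control cells, a ratio of 9.08 (4.55 to 20.1), with a highest value of 579 CPM in 1 model cell. The log2 ratio of Hes1 over all members was -0.26 once cells with a Ptprc, Cd3e or Cd3g UMI were left out. This removed 3 of 8 model and 34 of 72 control cells and also changed the mix of depths. The other named higher genes were the transcriptional regulator Zfp652 at 10.2 (3.46 to 40.7), the mitotic kinesin Kif20b at 9.73 (3.28 to 39), Gvin-ps3 at 4.31 (2.85 to 6.64) and the heat shock protein Hsph1 at 4.87 (2.68 to 9.27).

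Genes of other cells were lower in the deep model cells. Zg16 was 13-fold (7.15 to 26.4) lower, Apoa1 11.1-fold (6.96 to 19) and Ccl5 13.9-fold (6.6 to 35), and absorptive genes were lower in 5 of 8, goblet genes in 4 of 8 and T cell genes in 2 of 2. In the control cells these UMIs were concentrated: 184 and 121 of 372 Apoa1 UMIs were in 2 cells, 234 of 265 Zg16 UMIs in 1 and 173 of 180 Ccl5 UMIs in 1. Within the model library, deep Paneth cells set against other model epithelium gave 93 of 1874 genes higher (4.96%) and 684 lower (36.5%), with alpha-defensins higher in 17 of 17, granule markers in 9 of 11 and absorptive genes lower in 18 of 18. Crypt stem cell genes were higher in 9 of 9 there, against 3 of 8 in the control library, but the difference itself was not tested.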

How the data were processed

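Each library of small intestine cells was made with 10x Genomics chemistry and sequenced on polyadenylated RNA, per the labels' protocols. The authors deposited, per library, a matrix of whole-number UMI counts per gene and barcode, with no further normalization. Cell Ranger is listed as version 4.0 in the submitters' processing notes, with build GRCm39, and as version 7.0.1 in the file header. Neither source says which annotation was used or how intronic and shared reads were counted.

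The members and gene lists were chosen with earlier results of these data known. Counts were summed over cells and scaled to CPM with Python 3.11.15, numpy 2.4.6, pandas 2.3.3 and scipy 1.17.1, and plotted with matplotlib 3.10.9. A gene was measured where either level gave at least 20 UMIs at the Paneth total (the smaller total, between libraries), and called at a ratio of at least 2 or at most 0.5. A group at 0 was set against a floor of 3 UMIs. Intervals are exact binomial (Clopper-Pearson, 95%) and cover counting error only; cells are not replicates, so no p-value was computed. The ratio script was tested on simulated data. Goblet cells had at least 1% and absorptive cells at least 5% of UMIs from their own genes, crypt stem cells a UMI of Lgr5 and of at least 2 of 5 further stem genes, and T cells at least 2 CD3 UMIs from at least 2 CD3 genes.

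Named genes were, outside the 8 rule genes, mitochondrial, ribosomal protein and unnamed genes, the 20 highest and 10 lowest against other epithelium with at least 50 UMIs, ranked by the interval bound nearest 1, the 5 highest and lowest against goblet and stem cells and between the libraries (20 UMIs), each list's extremes and members of known role, and all alpha-defensins of at least 20 UMIs. Alternatives changed the limits on share, products, depth and mitochondrial UMIs, the scaling and the cells used; those by depth of 5000 UMIs, by thinning to 500 UMIs, without T cell markers and without the deepest cell were chosen after seeing the data.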

Additional observations from a re-analysis of the deposited data

How the results depend on the processing

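The lower share of Paneth cells in the model library kept its direction under every limit tried; the log2 ratio of -3.28 was -2.11 when all 3 products were required, -0.99 at 5000 UMIs or more and -5.04 under 5000 UMIs. The number of measured genes changed with the setting and is given with each count. Against other control epithelium, the 133 higher genes of 3973 became 286 of 3850 with the mean over cells. In the 12 members without markers of other cells they were 32 of 280. With at least 50 UMIs they were 69 of 1622, and in the shallow members 60 of 742. The 1739 lower genes of 3973 became 452 of 2814 on scaled CPM and 180 of 280 without markers of other cells. With at least 50 UMIs they were 743 of 1622, and in the shallow members 437 of 742. Without cells that had a Ptprc, Cd3e or Cd3g UMI they were 1031 of 2615. Between model and control members, the 223 higher genes of 1311 became 143 of 1322 on scaled CPM. Without Ptprc, Cd3e or Cd3g cells, which left 5 model and 38 control members, they were 3 of 230. The 97 lower genes of 1311 became 58 of 230 there. The signs of 3 values turned: Hes1, model over control, to -0.26 and the goblet list to 0.20 without Ptprc, Cd3e or Cd3g cells, and the mitochondrially encoded list, Paneth over other epithelium, to 0.20 without markers of other cells. Fewer genes reach the limit with fewer cells; otherwise the cause was not tested. Of all values recomputed, 433 stayed within their limits, 175 moved and 3 reversed. The filter on markers of other cells was not run between libraries, because 0 model members passed it. No paired analysis was possible because each label has 1 library. With 11 deep control and 6 deep model cells, genes of under 20 UMIs could not be compared, and the split of UMIs among near-identical defensins is uncertain.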
